A study of Mus musculus with 2 samples.

Results

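The candidate 5-formylcytosine (5fC) sites described here lie in the distal part of mouse chromosome 8, from position 114000000 to 125000000 of the mm10 build, an interval of 11 Mb that holds Wwox, Cdh13, Gse1 and Ctu2. Sites were chosen by position alone, in any sequence context and on either strand, and numbered 423 of 28569 in replicate 1 and 453 of 29650 in replicate 2. Of these, 181 were called in both replicates, of 11542 such sites in the genome. The bounds had been drawn around genes already known to hold many sites in these data, so the number of sites is given as a description, without a test. At the lower bound, the nearest sites outside lay at 113931265 (25.7% in replicate 1) and 113941629 (77.4% in replicate 2), and the nearest inside at 114205580 (68.3%) and 114093034 (97.1%). At the upper bound, the nearest inside lay at 124986756 (62.5%) and 124986652 (65.8%), and the nearest outside at 125003885 (71.1%) and 125011630 (40%).

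The 2 libraries came from genomic DNA of mouse embryonic stem cells (cultured cells able to form every tissue of the body) and make up 1 group, with no control library, no stated treatment and no second genotype. DNA fragments of 300 to 500 bp had a biotin handle attached to 5fC, were pulled down with streptavidin and then exposed to the deaminase A3A. A3A converts cytosine and its methyl and hydroxymethyl forms so that they are no longer read as C, while biotin-labelled 5fC resists it. The share of reads that still showed C at a position is called its level. Only captured fragments enter this share, and an unconverted cytosine cannot be told apart from a modified one. The strain, the passage and the origin of the cells are not given in the sources used here, nor whether the libraries came from separate cultures, and cell identity was not checked, since no expression was measured.

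5fC is made by the TET enzymes, which oxidise 5-methylcytosine stepwise through 5-hydroxymethylcytosine. The glycosylase TDG removes 5fC, and base excision repair restores an unmodified cytosine. In embryonic stem cells, methylation is mostly found at CG dinucleotides, with a smaller part at other contexts. Wwox encodes an oxidoreductase with WW domains and, like Cdh13, which encodes the membrane-anchored T-cadherin, is among the very long genes of the mouse. Gse1 encodes a protein found in histone deacetylase and demethylase corepressor complexes, and Ctu2 a subunit of the enzyme that thiolates the wobble uridine of some transfer RNAs.

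Sequence was available for promoter windows, from 250 bases before to 50 after a transcript start in RefSeq (GRCm38.p6, the build of mm10). Of the named genes, Gse1 and Ctu2 were matched. The 228 windows inside the interval belonged to 190 genes, and 17 of them held a called site, 16 sites in all. Sites called in both replicates fell in 6 windows, at 5 positions, and these are shown because they are the shared sites of the interval whose surroundings can be read. Each is printed 5′ to 3′ on the strand of the called cytosine, and the capitals mark that cytosine and its next 2 bases.
Cdt1, chr8:122567765-122568014, plus strand: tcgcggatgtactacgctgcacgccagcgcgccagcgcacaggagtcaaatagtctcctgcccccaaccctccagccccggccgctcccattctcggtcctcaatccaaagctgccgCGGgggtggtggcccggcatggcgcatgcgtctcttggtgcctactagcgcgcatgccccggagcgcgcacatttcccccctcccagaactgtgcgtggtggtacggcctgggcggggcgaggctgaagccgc
Exoc8 and Sprtn, chr8:124897706-124897770, minus strand: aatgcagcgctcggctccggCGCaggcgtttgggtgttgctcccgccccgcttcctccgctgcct
Kcng4, chr8:119635681-119635930, minus strand: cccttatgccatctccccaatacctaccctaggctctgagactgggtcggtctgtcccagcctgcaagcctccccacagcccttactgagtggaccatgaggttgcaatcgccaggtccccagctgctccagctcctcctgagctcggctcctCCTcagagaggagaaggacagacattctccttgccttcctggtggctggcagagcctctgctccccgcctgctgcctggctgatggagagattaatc
Hsdl1, chr8:119575043-119575071, minus strand: acgcccctcgcgccCCGcttccgtccctg
Ccsap, chr8:123859528-123859556, minus strand: gccccctctccgccCCTccttgccccagc

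The site upstream of Cdt1, whose product licenses replication origins, was a CG cytosine 133 bases before the start. It kept the C in 27 of 30 reads in both replicates (90%, 95% Wilson interval 74.4 to 96.5). The 250 bases shown held 25 CG dinucleotides, and the listed cytosine is the only one of them called in either library. Between Exoc8, which encodes an exocyst subunit, and Sprtn, which encodes a protease that repairs DNA-protein crosslinks, a CG cytosine at 124897750 stood at 46.2% (18 of 39 reads) and 45.0% (18 of 40). The 65 bases shown are the whole gap between these divergent genes and held 8 CG dinucleotides. At Kcng4, a potassium channel subunit gene, the promoter held few CG dinucleotides (4 in 300 bases), and the called cytosine, 97 bases before the start, was followed by CT. It stood at 82.2% in both replicates (37 of 45 reads). The sites at Hsdl1 (30% in both, 12 of 40 reads) and Ccsap (32.4% and 30.3%) were 95 and 74 bases before the start in the promoter table, but still inside the longer RefSeq span of each gene, in windows with 43 and 31 CG dinucleotides. Over all promoter windows of the table the median was 7 (quartiles 3 and 20). Shared sites were found in 2.63% of the windows of the interval (Wilson interval 1.21 to 5.62), and in 0.952% of 31396 windows on the autosomes. The interval was drawn around genes known to hold many sites, so a higher share here was partly fixed by that choice. Shared sites of any position stood at 16.5 per Mb in it, against 5.84 on the rest of chromosome 8. Windows of neighbouring genes overlap, and the difference in promoter share was not tested.

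The interval was the densest stretch of its length among those compared. Those were fixed windows, while its own bounds had been drawn around genes known to hold many sites. The interval held 38.5 called sites per Mb in replicate 1 and 41.2 in replicate 2. On the rest of chromosome 8 there were 14.3 and 15.2, so the interval had 2.69 and 2.71 times as many. Full windows of 11 Mb, 213 in all, were laid from the start of each autosome, so a last part shorter than 11 Mb was left out. On chromosome 8 they ended at 121000000, inside the interval. The windows had a median of 108 and 111 sites, and 0 of them held more than the 423 and 453 of the interval. The next highest, on chromosome 17 from 33000001 to 44000000, held 402 and 427, and it also had more shared sites, 198 against 181. The count of protein-coding genes, 128, was exceeded in 50 of the 213 windows. In the 23 windows whose gene number was within 15 of that, replicate 1 ranged from 65 to 252 sites and replicate 2 from 77 to 242. Over the 5 Mb before the interval, density was 23.4 and 23.2 per Mb, about that of the first 5 Mb inside it (23.2 and 22). From the end of the interval to the last annotated gene it was 21.0 and 21.9 per Mb. Depth at called sites had a median of 34 reads in both libraries, against 34 and 33 on the rest of the chromosome. The reads at listed sites of the interval summed to 15259 and 16332. Listing required 30 reads, so these medians say little about coverage, and its part in the density was not tested.

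**Figure D1:**
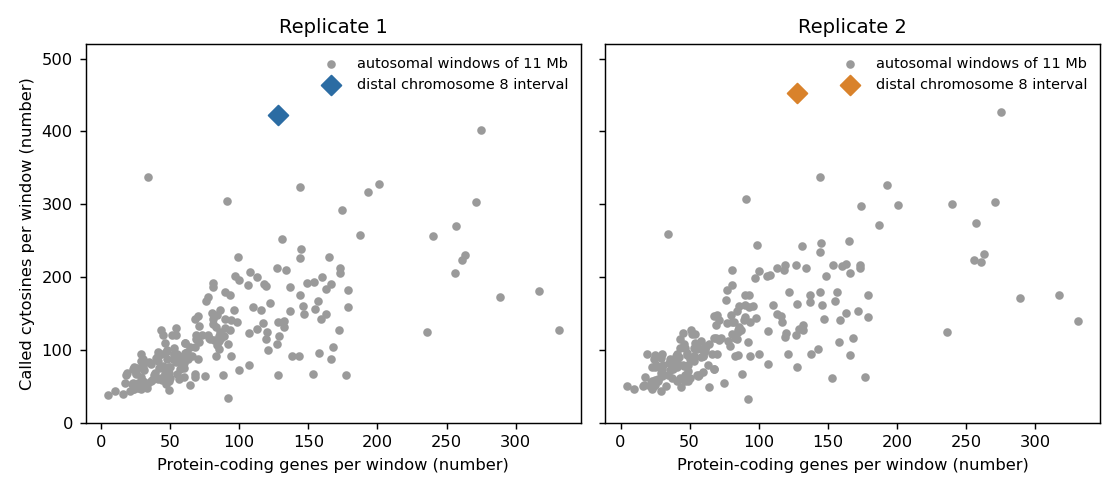
Called cytosines (vertical axis, number) against protein-coding genes (horizontal axis, number) in 213 autosomal windows of 11 Mb, each a grey point, with the distal chromosome 8 interval as a diamond, for replicate 1 (left) and replicate 2 (right). The interval stands above every window, at 423 and 453 sites, while 50 windows hold more genes. The last window of chromosome 8, from 110000001 to 121000000, overlaps the interval, and the ends of the autosomes beyond the last full window are left out.

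Within the interval the sites were unevenly spread. From 114 to 119 Mb, where Wwox, the transcription factor gene Maf and most of Cdh13 lie among 21 protein-coding genes, there were 23.2 and 22 sites per Mb. From 119 Mb on, with Gse1, the FOX gene cluster and Ctu2 among 107 genes, there were 51.2 and 57.2 per Mb. This boundary was chosen after the values were seen. The share of sequence inside protein-coding genes was alike in both (56.8% and 59.3%), because the first part holds few but long genes. Single megabases ranged from 17 sites (118 to 119 Mb in replicate 1, where Cdh13 takes up 86.0% of the sequence, and 115 to 116 Mb in replicate 2) to 64 in replicate 2 (121 to 122 Mb, with the FOX genes and Jph3). The libraries were farthest apart between 124 and 125 Mb, at 43 and 55 sites. Median levels were 55.4% and 56.5% before 119 Mb and 48.4% and 45.2% after it.

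**Figure D2:**
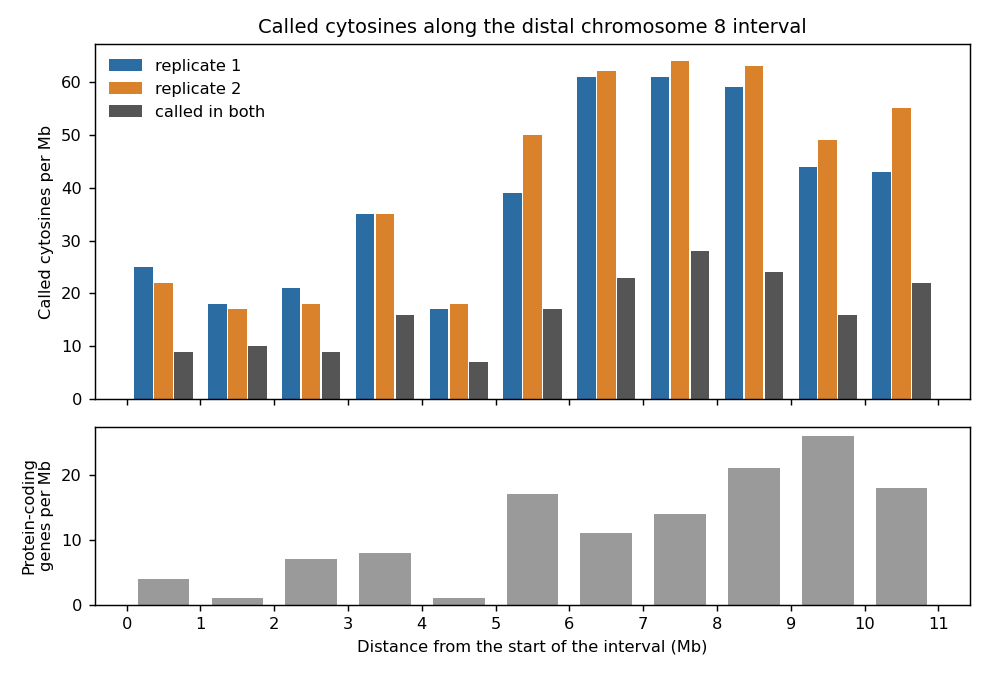
Called cytosines per Mb along the interval (upper panel, bars for replicate 1, replicate 2 and sites called in both) and protein-coding genes per Mb, placed by their midpoint (lower panel). The horizontal axis is the distance from the start of the interval in Mb. Both libraries stay at or below 35 sites per Mb over the first 5 Mb and reach at least 39 in each later one.

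Protein-coding genes covered 58.2% of the interval and held 65.2% of the sites of replicate 1 (Wilson interval 60.6 to 69.6), 62.9% of those of replicate 2 (58.4 to 67.2) and 63.0% of the shared ones (55.7 to 69.7). Exons and introns were not distinguished. Of the 128 genes, 86 held a site in replicate 1, 88 in replicate 2 and 55 a shared one. Of these 55, 36 held a single shared site. Wwox, Cdh13, Gse1 and Ctu2 together made up 22.3% of the interval and held 22.1% of the shared sites (40 of 181), 20.1% of those of replicate 1 and 19.2% of those of replicate 2. Their combined count thus stood where their length put it, while the genes differed among themselves.

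**Figure D3:**
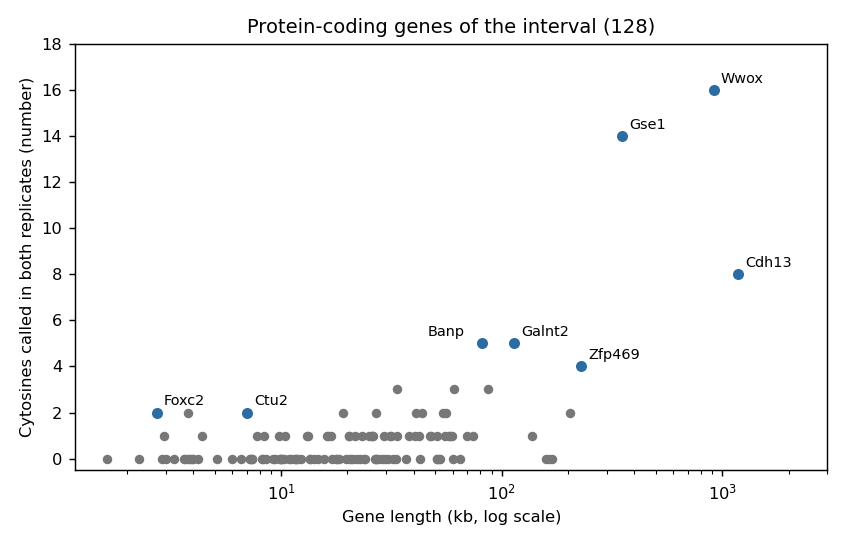
Cytosines called in both replicates (vertical axis, number) against gene length (horizontal axis, kb, log scale) for the 128 protein-coding genes of the interval, each a point. Wwox with 16 and Gse1 with 14 stand above Cdh13, the longest gene, with 8, and every other gene holds at most 5.

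Wwox (114439635 to 115352712, 913.1 kb) held 33 sites in replicate 1 and 29 in replicate 2, of which 16 were shared, or 17.5 shared sites per Mb of gene. That is close to the 16.5 per Mb of the whole interval and above the 10.2 per Mb of its first 5 Mb. The shared sites ran through the gene, the first 5.0 kb from its lower end and the last 13.4 kb from its upper end, with no gap over 140.0 kb. The highest was a non-CG site at 114499192, with 29 of 30 reads in replicate 1 (96.7%) and 29 of 31 in replicate 2 (93.5%). Those at 114751689 (90% in both), 114657119 (84.4% and 83.9%) and 114487454 (80.6% in both) were the others of at least 80%. The lowest was at 114781489, the next shared site after that at 90%, with 10 of 52 reads in replicate 1 (19.2%) and 7 of 30 in replicate 2 (23.3%), followed by 114444612 (25.6% and 28.2%) and 115158119 (29.0% and 27.3%). The other non-CG sites were at 114523969 (50% in both), 114892192 (55% and 56.4%), 115032188 (44.1% and 42.9%), 115214962 (77.8% in both), 115323535 (66.7% in both), 115327065 (38.7% in both) and 115339308 (76.9% and 77.5%). Read along the gene, 3 sites of at least 77.4% from 114657119 to 114751689 were followed by 4 of at most 56.4% from 114781489 to 115158119. These stretches and cut-offs were picked after the values were seen. They held in both replicates, but counts were identical at 8 of the 16 sites, so this is no separate support. The CG sites of Wwox that both replicates called were at 114661678 (24 of 31 reads, 77.4% in both) and 115294040 (25 of 35 reads, 71.4% in both), of 5 CG sites in replicate 1 and 3 in replicate 2. The median shared level was 69.0% in both.

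Gse1 (120228501 to 120581383, 352.9 kb) held 29 and 30 sites, of which 14 were shared. At 39.7 per Mb of gene its shared sites were denser than those of Wwox, of the whole interval and of the part after 119 Mb (21.7 per Mb). None of the 14 was a CG site, and CG sites were listed at 0 in replicate 1 and 2 in replicate 2. The shared sites began 1.99 kb from the lower end and ended 1.10 kb from the upper end, with the widest gap at 67.5 kb. The highest stood at 120409517 with 30 of 31 reads (96.8% in both), 120331836 with 32 of 34 (94.1% in both), in a stretch shared with the long noncoding RNA gene Gm32968, and 120486778 with 28 of 32 (87.5% in both). The lowest were at 120381058 (22.2% in both) and 120255394 (23.5% and 22.9%). The remaining sites lay between these, at 120230487 (50% in both), 120264322 (63.3% in both), 120473238 (55.6% and 54.1%), 120496235 (44.4% in both), 120498713 (67.5% in both), 120531200 (50% in both), 120537551 (78.1% in both), 120566479 (45.2% and 46.7%) and 120580279 (57.1% in both). The last part of the gene, from 120473238 on, held 8 of the 14, the lowest of them at 44.4%. This starting point was picked after the values were seen. The median shared level was 56.3% and 55.6%.

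Cdh13 (118140017 to 119324929, 1184.9 kb) is the longest gene of the interval and had 21 and 26 sites, of which 8 were shared, or 6.75 per Mb of gene. This was near the 5.84 shared sites per Mb on the rest of chromosome 8. A stretch of 498.9 kb, from 118698406 to 119197314, held 0 shared sites, and the first lay 146.3 kb from the lower end. Levels were mostly high: 90% in both at 118286341, 83.9% in both at 118338487, 81.2% in both at 119197314 and 75% in both at 119310797. The CG site of the gene, at 118698406, stood at 85.7% (30 of 35 reads) and 86.1% (31 of 36). Lower sites lay at 118351752 (58.1% in both), 118551037 (48.5% and 47.1%) and 118598066 (29.0% in both). The median shared level, 78.1% in both, was above those of Wwox and Gse1. Over all its sites, the shared ones included, the median was 75% in replicate 1 and 54.0% in replicate 2, against 65.6% and 56.4% in Wwox and 47.1% and 50% in Gse1. The order of Cdh13 and Wwox thus changed between the libraries.

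Ctu2 (122476068 to 122483092, 7.03 kb), although small, had 2 sites in each library, and both were shared CG sites. At 122477950 every read kept the C, 30 of 30 in both replicates (Wilson lower bound 88.6%). At 122479347, 1397 bases further on, 8 of 33 reads did so in both (24.2%, Wilson interval 12.8 to 41.0). Both lay on the plus strand, the strand of the gene in RefSeq. Within its promoter window, which overlaps the start of Rnf166, replicate 1 alone listed a site at 122476030, where 53 of 53 reads kept the C.

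**Figure D4:**
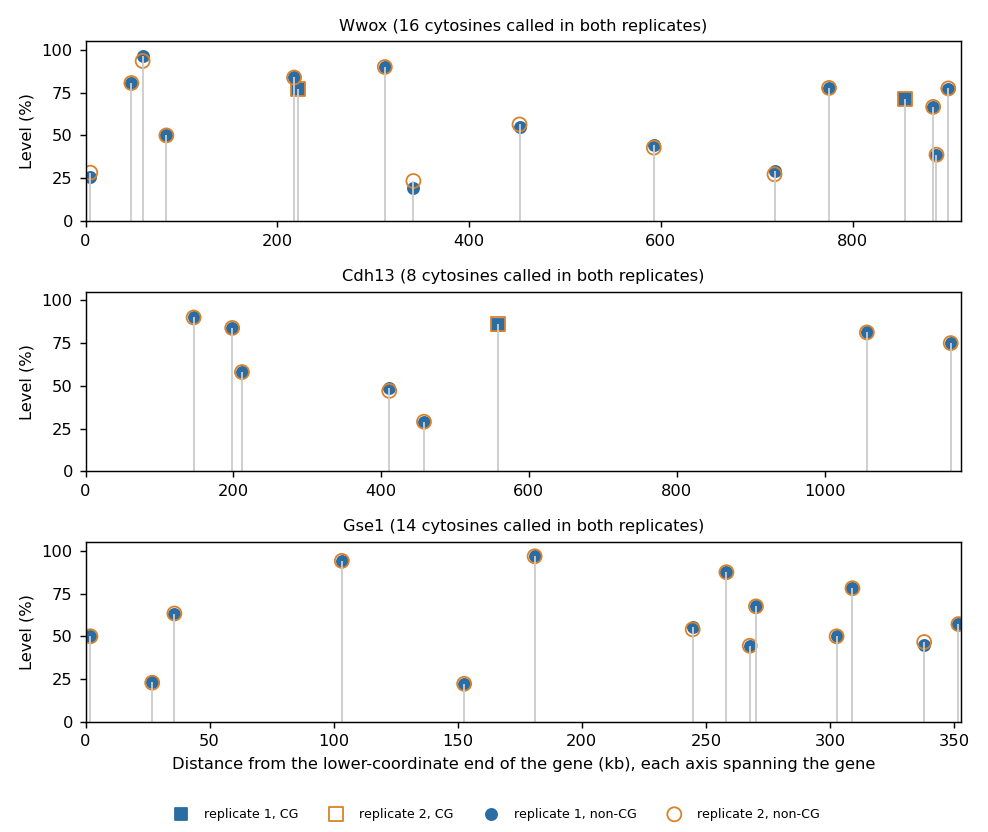
Level (vertical axis, percent of reads that kept the C) of the cytosines called in both replicates along Wwox, Cdh13 and Gse1, by distance from the lower-coordinate end of each gene (horizontal axis, kb). Filled symbols are replicate 1, open symbols replicate 2, squares CG sites and circles other contexts. Filled and open symbols nearly coincide, high and low levels occur within each gene, and Cdh13 shows a gap of 498.9 kb.

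Among the 533 autosomal protein-coding genes of at least 300 kb, the median was 2.72 shared sites per Mb of gene (quartiles 0.507 and 5.28). Gse1 had the highest value, 4 genes were above Wwox and 80 above Cdh13. In plain number, 0 of these genes had more shared sites than Wwox, 1 had more than Gse1 and 6 more than Cdh13. The genes were chosen with such counts known, so these ranks describe them and test nothing.

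Next to these 4 genes, Galnt2, which encodes an enzyme that starts O-linked glycosylation, and Banp, which encodes a nuclear-matrix-associated protein that binds unmethylated CG-containing motifs, held 5 shared sites each. In Galnt2 they were low, from 23.5% to 40.6% in replicate 1 and 23.1% to 40.6% in replicate 2. In Banp they spread from 20.5% to 96.7% and from 20.5% to 93.3%. The zinc finger gene Zfp469 held 14 and 17 sites, of which 4 were shared, at 38.2% to 54.5% in replicate 1. Pkd1l2, Jph3, which encodes a junctophilin that tethers endoplasmic reticulum to the plasma membrane, and the lysosomal sulfatase gene Galns held 3 shared sites each. Pkd1l2 had the highest median of these, 88.9% in both replicates, and Jph3 held a site with 30 of 30 reads in both, at 121760522. Zfpm1, which encodes the GATA cofactor FOG, and Cmip held 3 within the gene and 2 kb on either side, and Zcchc14 and Trim67 held 2. Zc3h18, which encodes a nuclear RNA-binding protein, held 2 shared CG sites only 9 bases apart, in a stretch that also belongs to Gm39270, at 122376845 (32.5% in both) and 122376854 (25% in both). Cmip, a signalling adaptor gene, had a shared CG site 314 bases before its annotated start, at 117256705 (67.5% and 65.9%). Closer to its start, replicate 1 alone listed a site at 117257002 (30 of 32 reads) and replicate 2 alone one at 117256952 (29 of 30 reads).

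The FOX gene cluster, with the forkhead transcription factor genes Foxf1, Foxc2 and Foxl1, Mthfsd and the long noncoding RNA gene Fendrr, acts in mesoderm and vessel development. From the lower end of Fendrr to the upper end of Foxl1 (121054882 to 121130644, 75.8 kb), a span chosen after the values were seen, 13 and 14 sites were called, 7 of them shared. Of those 7, 3 were CG sites, in Fendrr at 121077766 (50% and 51.6%), in Mthfsd at 121101322 (27.3% and 28.1%) and in Foxc2 at 121116315 (26.8% in both, 11 of 41 reads). Foxc2, only 2.73 kb long, also held the shared site with the most reads of the interval, a non-CG cytosine at 121116217 with 53 of 80 reads in both replicates (66.2%). Replicate 1 listed further Foxc2 sites at 121117049 (27.8%) and 121118041 (31 of 31 reads), which replicate 2 did not. Foxl1 held a non-CG site at 50% in both, and Foxf1 held none in either library. The 10 kb window with the most sites of the interval, 5 in replicate 1 and 4 in replicate 2, started at 121110000 and includes Foxc2.

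Genes of the interval were also read by function in 7 lists, counting shared sites within the gene and 2 kb on either side. Over all 128 protein-coding genes 67 held one, or 52.3%, and the lists are given as counts only. Of the transcription factor genes, 8 of 11 held a shared site, among them Banp, Zfpm1, Foxc2, Cbfa2t3, a corepressor gene, and Zfp276, but not Maf, Foxf1 or Snai3. Of the chromatin and corepressor genes, 5 of 8 did, with Gse1, Zfpm1, Zc3h18, Cbfa2t3 and Taf5l, and Cdyl2, Ankrd11 and Taf1c were without one. Among the replication, repair and centromere genes it was 4 of 6 (Gins2, Sprtn, the deubiquitinase gene Usp10 and Cdt1), and at Cdt1 the site lay in the flank. Adhesion and cytoskeleton genes had 6 of 8, among them Cdh13, the muscle cadherin gene Cdh15 at a median of 33.9% and the neuronal tubulin gene Tubb3 at 22.9%. Signalling and channel genes had 8 of 10, with Cmip, Pkd1l2, Jph3, the mechanosensitive channel gene Piezo1 (40.5% and 42.1%) and the calcium-binding protein gene Necab2 (95.1% in both). Metabolic enzymes and transporters had 8 of 15, with Wwox, Galnt2, Galns, Acsf3 and the carotenoid oxygenase gene Bco1. The last list, drawn up for transfer RNA, ribosome and translation, had 3 of 6, with Urb2, Ctu2 and Trappc2l. It also holds genes of other functions, namely Trappc2l, Map1lc3b and Emc8. Trappc2l held no called site itself. Its shared site, at 122611210, lay in the flank and inside Galns, which the metabolic list already counts. The shares of the 7 lists ranged from 50% to 80%, but long genes collect more sites, and no list was tested.

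Of the 181 shared sites, 21 were CG sites (11.6%, Wilson interval 7.72 to 17.1), against 55 of 691 (7.96%, 6.17 to 10.2) on the rest of chromosome 8. Over all calls, CG sites made up 9.22% in replicate 1 (6.82 to 12.4) and 9.27% in replicate 2 (6.93 to 12.3), against 7.05% (5.92 to 8.37) and 7.74% (6.60 to 9.07) on the rest, so the intervals overlapped. Of the 16 trinucleotides, CCG stood at 5.44% (3.65 to 8.03) and 4.42% (2.88 to 6.72), against 2.13% (1.54 to 2.94) and 2.28% (1.69 to 3.08) on the rest of the chromosome. CAT went the other way, at 4.02% (2.52 to 6.34) and 3.97% (2.53 to 6.19), against 7.11% (5.98 to 8.43) and 7.19% (6.08 to 8.48). Both were picked after the values were seen. The intervals were apart for CCG in replicate 1 and overlapped for CCG in replicate 2 and for CAT in both. The base composition of the covered sequence is not known. CG sites were 60.6% and 63.2% C-retaining at the median, against 48.7% and 46.5% at other sites of the interval, and against 48.4% and 46.7% at CG sites on the rest of the chromosome. With 39 and 42 CG sites these medians are loosely fixed and the differences were not tested.

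Of the 21 shared CG sites, 13 lay in protein-coding genes, 2 in long noncoding RNA genes alone and 6 in neither. At 8 of them both levels were at least 80%, and at 5 both were below 30%. Among the 160 other shared sites these numbers were 39 and 33, and the difference was not tested. All reads kept the C at the Ctu2 site and at 117847700, which lies 45726 bp from Mphosph6 (32 of 32 reads in both). Wfdc1, whose product is a secreted protease-inhibitor-like protein, held one at 95.7% (45 of 47 reads in both), and Tcf25 and Trim67 one each at 94.1% (32 of 34). A site 925 bp from Spata33 stood at 88.5% with 46 of 52 reads in both. The 5 low ones were in Fbxo31, an F-box protein gene (28.2% and 25.6%), and, as given above, in Mthfsd, Foxc2, Zc3h18 and Ctu2. Others were at 116368826, 136189 bp from Dynlrb2 (43.3% in both), and at 123238619 in the noncoding gene 4933417D19Rik (32.3% in both). The most highly retained shared non-CG sites, after that in Jph3, stood at 120928440 (97.1%), 155946 bp from Foxf1, at 115806980 (96.9%), 100086 bp from Maf, in Gse1 (96.8%) and in Cmip at 117382904 (95.1%), each alike in both replicates.

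At the 181 shared sites the libraries were nearly the same. Counts of kept and lost C were identical at 123 of them (68.0%, Wilson interval 60.8 to 74.3), against 71.1% (67.6 to 74.3) on the rest of chromosome 8. At 171 both counts were within 1 read, and the widest difference in level was 4.48 points. Fisher's exact test (two-sided, Benjamini-Hochberg over all 11542 shared sites of the genome) called 0.026% of sites genome-wide, 3 in number, and 0 of the 181. Of the 181, 0 had an unadjusted p under 0.05, and Holm adjustment also called 0. The lowest p, 0.680, was in Cog2, a Golgi complex gene, at 124530973, where 27 of 30 reads (90%) and 57 of 61 (93.4%) kept the C. Next came 121461355 (88.4% and 92.9%, Fisher's exact p = 0.713) and the lowest site of Wwox (p = 0.779). Since shared counts were more alike than separate draws of reads would be, the libraries were counted as 1 sample there, and levels are given per library without an SD. The p-values cover counting error only, and any difference between these 2 libraries may be technical.

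**Figure D5:**
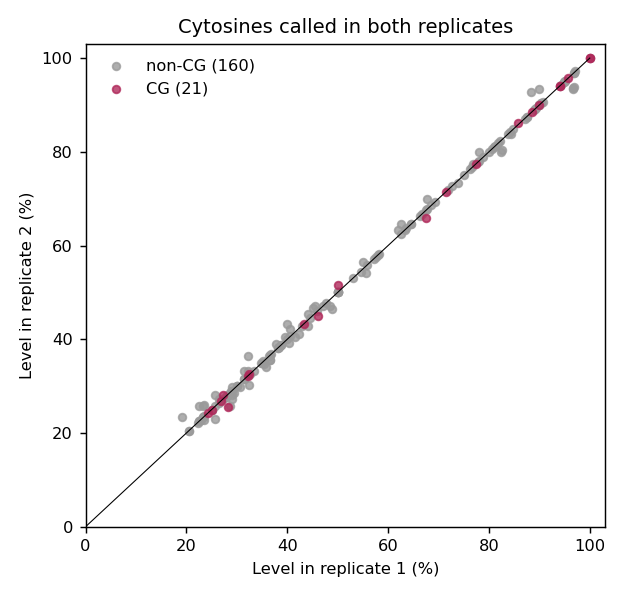
Level in replicate 2 (vertical axis, percent) against level in replicate 1 (horizontal axis, percent) at the 181 cytosines of the interval called in both, with the line of equal levels. The 21 CG sites and 160 other sites lie along the line, within 4.48 points of it.

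The shared sites were 42.8% of the calls of replicate 1 (38.2 to 47.5) and 40.0% of those of replicate 2 (35.5 to 44.5), against 40.9% and 38.5% on the rest of chromosome 8. Of the 242 sites that replicate 1 alone listed, 48 (19.8%) had a partner within 120 bp among the 272 of replicate 2 with both counts within 1 read. Most such pairs, 33 of 50, lay 91 to 120 bp apart, and beyond that, up to 150 bp, there was 1 pair and it was not near-equal. In Fendrr, for example, 11 of 38 reads kept the C at 121058659 in replicate 1 and 12 of 38 at 121058555 in replicate 2. Such pairs were counted in the interval only, so they are not shown to be particular to it. Sites inside a replicate were mostly single, with another within 100 bp at 10 sites in replicate 1 and 9 in replicate 2. No 10 kb window of the interval held 10 or more.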

How the data were processed

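Genomic DNA was measured in 2 libraries of 1 group. Bowtie2 2.4.5, SAMtools, Bismark 0.23.1, FastQC 0.11.9, cutadapt 4.1 and the mm10 build are listed, without roles, per the submitters' processing notes. How duplicates were handled is not given in these sources. Per the file headers, the authors deposited for each listed cytosine raw counts, namely reads with the C kept, reads without it, and the depth. The authors also deposited a p-value with Holm and Benjamini-Hochberg adjusted values. Tested on the files, all listed sites had at least 30 reads and an adjusted p below 0.05, so low levels and uncalled cytosines are missing.

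Level was kept reads over depth, with 95% Wilson intervals. PCR reads without molecular identifiers are not independent, so intervals and Fisher's exact test (SciPy 1.17.1, tested on simulated data) cover counting error only. The simulated reads were drawn separately for each library, with large shifts at some sites. They are therefore unlike the nearly equal counts of these libraries. Replicates were matched by chromosome, position and strand. Genes came from RefSeq GRCm38.p6, and at 998 of 998 sites in its promoter windows the listed trinucleotide matched the sequence. For density, chromosome 8 was taken to end with its last annotated gene (129286569).

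The interval, gene lists and tests were chosen with earlier results of these data known. The naming rule took the 4 genes above, the 12 others with the most shared sites within 2 kb, up to 5 genes a list, the 20 CG and 5 non-CG shared sites highest in the lower replicate, the 3 deepest and the 3 lowest in Fisher p. A gene count of 0 or a site outside this rule was named after its value was seen. Alternatives were stricter thresholds, depth, level, matching, flank, window and single-replicate settings.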

Additional observations from a re-analysis of the deposited data

How the results depend on the processing

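No paired analysis was possible because both libraries belong to 1 group. For 10 results, 67 values were taken under other settings, and 43 of them stayed near the main value. Near meant within the SD of the 2 libraries for ratio, CG share and median, and within 1.5 times for counts and densities. This SD is a yardstick for size only, since the libraries are not shown to be independent. A single replicate always lies within it of the mean of both. Leaving out dense windows could not move the density of the interval, which held none. The 43 therefore include outcomes fixed in advance. Averaged over the libraries, the interval held 2.70 times the site density of the rest of chromosome 8, a CG share of 9.25% and a median level of 48.4%. With an adjusted p under 0.01 these were 2.75, 9.66% and 54.1%, and under 0.001 they were 2.81, 9.89% and 61.1%. Low levels fail stricter thresholds first. Dropping levels under 20% gave a CG share of 9.30%. Among sites with 50 reads or more, 1.5 sites per Mb and 3 shared sites remained, the ratio was 2.36 and the CG share 8.89%, and shared sites per Mb were 0 in Wwox, Cdh13, Gse1 and Ctu2. The named counts of these genes therefore rest on sites with fewer than 50 reads in at least 1 library. Ctu2 had 142.3 shared sites per Mb at both stricter thresholds and 181.4 with flanks, against 284.7, since it holds only 2. With the sites of a single replicate in place of the shared ones, sites per Mb of gene were 31.8 to 36.1 in Wwox, 17.7 to 21.9 in Cdh13 and 82.2 to 85.0 in Gse1. Gse1 was densest and Cdh13 sparsest of these 3 in each. Matching within 5 bp gave 189 shared sites and within 120 bp 246. No site differed between replicates under any alternative run. Each alternative tested the shared sites of the genome that it kept, and then counted those of the interval, the 181 or fewer. Among the 181 the lowest unadjusted Fisher's exact p was 0.680, so this outcome was fixed in advance.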

Other observations

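Long noncoding RNA genes of the interval were counted in the same way. Of 111 such genes, 18 held a shared site, 32 a site in replicate 1 and 31 in replicate 2. For the 128 protein-coding genes these numbers were 55, 86 and 88. Gene lengths differ, and this was not tested. Some of the sites also lie in protein-coding genes, such as Pkd1l2, Cdh13 and Gse1, and are counted there too. In long noncoding RNA genes alone lay 2 CG and 13 other shared sites. Gm31278 held 3 shared sites at a median of 26.5% in both replicates, and Gm15395, which lies inside Pkd1l2, held 2 at 68.2% and 67.7%. Others stood high, with Gm32352 at 89.1% and Gm30209 at 87.5% in both, on 1 shared site each.

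The interval holds 48 annotated ribosomal RNA genes, packed between 123538784 and 123622046. Inside that span 2 sites were called in each library and 0 were shared, and 0 lay in one of the annotated genes. The 8 microRNA genes of the interval held 0 called sites in either library. Only cytosines with at least 30 reads are listed, so these counts do not show that the genes were unmodified.

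Of the 21 shared CG sites, 17 were listed on the plus strand and 4 on the minus strand, while the 160 other shared sites were divided 82 to 78. This was noticed in the data and was not tested. In the 95 protein-coding genes with a single strand in the promoter table, shared sites were counted once per gene. They were 38 times on the strand of the gene and 26 times on the other. The 2 sites that lie in both Zc3h18 and Gm39270 were counted for each of these genes, which run on opposite strands.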
